A study of Homo sapiens with 18 samples.

Results

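Histones package DNA into nucleosomes, and most histone genes lie in clusters and are transcribed during DNA replication. The genes described here are histone variant genes that lie outside the clusters. Most such genes encode replacement variants and are transcribed throughout the cell cycle. Cell-cycle phase was not measured here. The set was taken by symbol from a table of 14079 genes and has 9 members, all present, of which 8 are described: the linker histone H1FX, the H2A variants H2AFJ, H2AFX, H2AFZ, H2AFV and H2AFY, and H3F3A and H3F3B, which both encode H3.3. Of these 8, 7 passed the filter on low counts and were tested among 10031 genes. H1FX, with 108 tags over 18 libraries, did not pass. A gene passed that filter if it had enough tags in at least as many libraries as 1 group holds.

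As background, replacement variants give a nucleosome properties that the clustered histones do not. H3.3 is deposited at active genes by HIRA and at silent repeats by DAXX and ATRX, H2A.Z is exchanged into nucleosomes around transcription start sites, and H2AX is phosphorylated beside DNA breaks. MacroH2A carries a large additional domain and is known from silenced chromatin. In acute myeloid leukaemia the BET proteins, which read acetylated histones, are studied as drug targets.

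The assay was CAGE (cap analysis of gene expression), in which each sequenced tag marks the capped 5′ end of an RNA, so that tag numbers need no correction for gene length. The cells were the human acute myeloid leukaemia lines OCI-AML2 and OCI-AML3, called AML2 and AML3 here, and each was given vehicle (DMSO), JQ1 or OTX015 with 3 libraries per group. JQ1 and OTX015 are related thienotriazolodiazepines that bind the bromodomains of BET proteins and differ in the side chain, an ester in JQ1 and a hydroxyphenyl amide in OTX015. As background, OCI-AML3 carries a mutated NPM1 gene with a cytoplasmic product (NPM1c), named in the title of the series, and OCI-AML2 does not. The labels give no genotype, dose or treatment time, each background is 1 cell line, and nothing says that the libraries of a group came from separate cultures. The p-values therefore measure the spread between these libraries, which may be technical, and a difference between AML3 and AML2 cannot be told apart from other differences between the lines.

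Gene tags per library ran from 303883 to 2163106. The libraries numbered 3 were the shallowest of their groups, with 303883 to 957036 tags against 777939 to 2163106 in those numbered 1 and 2. Of 9 myeloid markers, 8 had tags in the vehicle groups and MPO had none in any group, while markers of T and B cells and of erythroid cells were at 0 throughout. Of 4 epithelial and stromal markers, COL1A2 alone had tags, in AML3 with JQ1 (up to 5.28 CPM) and OTX015 (up to 5.46 CPM). The summed myeloid markers were at 1245 to 1424 CPM in AML3 with vehicle and at 420 to 640 CPM with the compounds, with ITGAM then at 0, and their part in the AML3 results below was not tested. CPM are tags per 1e6 tags of the library after scaling by library size and TMM factors. In these bulk libraries, fewer cells of a kind and less RNA per cell cannot be told apart. The 8 genes together took 0.538% ± 0.0341 (SD, n = 3) of gene tags in AML2 with vehicle and 0.382% ± 0.0451 in AML3 with vehicle.

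The promoters of 6 transcripts are shown, those of H2AFZ, H2AFV, H3F3B and H2AFX and of both start sites of H2AFY. The windows of H3F3A, which encodes the same protein as H3F3B, hold no TATAAA and are not printed. Each line gives the 150 bases that end just before a RefSeq start site (GRCh38.p14), 5′ to 3′ on the gene's strand, with CCAAT or its complement ATTGG and TATAAA in capitals.
H2AFZ (H2AZ1), chr4:99950276-99950425, minus strand: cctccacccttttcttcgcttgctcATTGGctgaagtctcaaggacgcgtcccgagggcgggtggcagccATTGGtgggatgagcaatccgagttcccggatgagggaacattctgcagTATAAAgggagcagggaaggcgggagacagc
H2AFV (H2AZ2), chr7:44848088-44848237, minus strand: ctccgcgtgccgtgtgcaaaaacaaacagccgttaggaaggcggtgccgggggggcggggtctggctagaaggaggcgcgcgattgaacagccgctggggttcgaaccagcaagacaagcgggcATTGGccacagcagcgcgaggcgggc
H3F3B (H3-3B), chr17:75779780-75779929, minus strand: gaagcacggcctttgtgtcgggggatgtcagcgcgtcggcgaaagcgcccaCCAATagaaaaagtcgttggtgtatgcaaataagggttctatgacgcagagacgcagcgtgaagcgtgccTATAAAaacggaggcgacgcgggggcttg
H2AFX (H2AX), chr11:119095466-119095615, minus strand: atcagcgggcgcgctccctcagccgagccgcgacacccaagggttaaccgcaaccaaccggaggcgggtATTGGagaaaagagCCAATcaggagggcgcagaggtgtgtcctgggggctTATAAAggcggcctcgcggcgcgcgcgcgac
H2AFY (MACROH2A1) inner start, chr5:135399232-135399381, minus strand: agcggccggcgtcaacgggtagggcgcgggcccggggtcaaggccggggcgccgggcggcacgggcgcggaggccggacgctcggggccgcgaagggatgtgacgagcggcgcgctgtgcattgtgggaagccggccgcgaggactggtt
H2AFY (MACROH2A1) outer start, chr5:135399888-135400037, minus strand: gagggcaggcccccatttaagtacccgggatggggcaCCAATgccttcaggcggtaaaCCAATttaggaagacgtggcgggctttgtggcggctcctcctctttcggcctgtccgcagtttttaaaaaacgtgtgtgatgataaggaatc
The windows of H2AFZ, H2AFX and H3F3B hold TATAAA with its first base 31, 31 and 29 bases before the start, and that of H2AFV does not. Over all 35116 RefSeq windows of this length, searched on both strands, 6.71% hold TATAAA and 23.5% hold CCAAT. The latter motif occurs 2 times in the windows of H2AFZ, H2AFX and the outer H2AFY start, 1 time in those of H2AFV and H3F3B, and not in that of the inner H2AFY start. The inner H2AFY window is 78.0% GC and the outer 54.0%, against a median of 60% over all windows. RefSeq windows were found for all 8 genes, 12 windows in all.

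The levels of the members spanned a wide range. In AML2 with vehicle, H3F3A (2532 CPM) and H2AFZ (2187 CPM) were highest and overlapped between libraries. H2AFX (633 CPM), H2AFV (471 CPM), H3F3B (393 CPM) and H2AFY (392 CPM) followed, each overlapping the next, and H2AFJ (45.7 CPM) and H1FX (5.54 CPM) were lowest and did not overlap. In AML3 with vehicle the order was H3F3A (1530 CPM), H2AFZ (1204 CPM), H2AFX (529 CPM), H3F3B (466 CPM), H2AFV (298 CPM), H2AFY (204 CPM), H2AFJ (42.7 CPM) and H1FX (3.54 CPM). H3F3A and H2AFZ shared part of their range there too, as did H2AFX and H3F3B. The plot of levels by library shows all 8 genes.

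**Figure D1:**
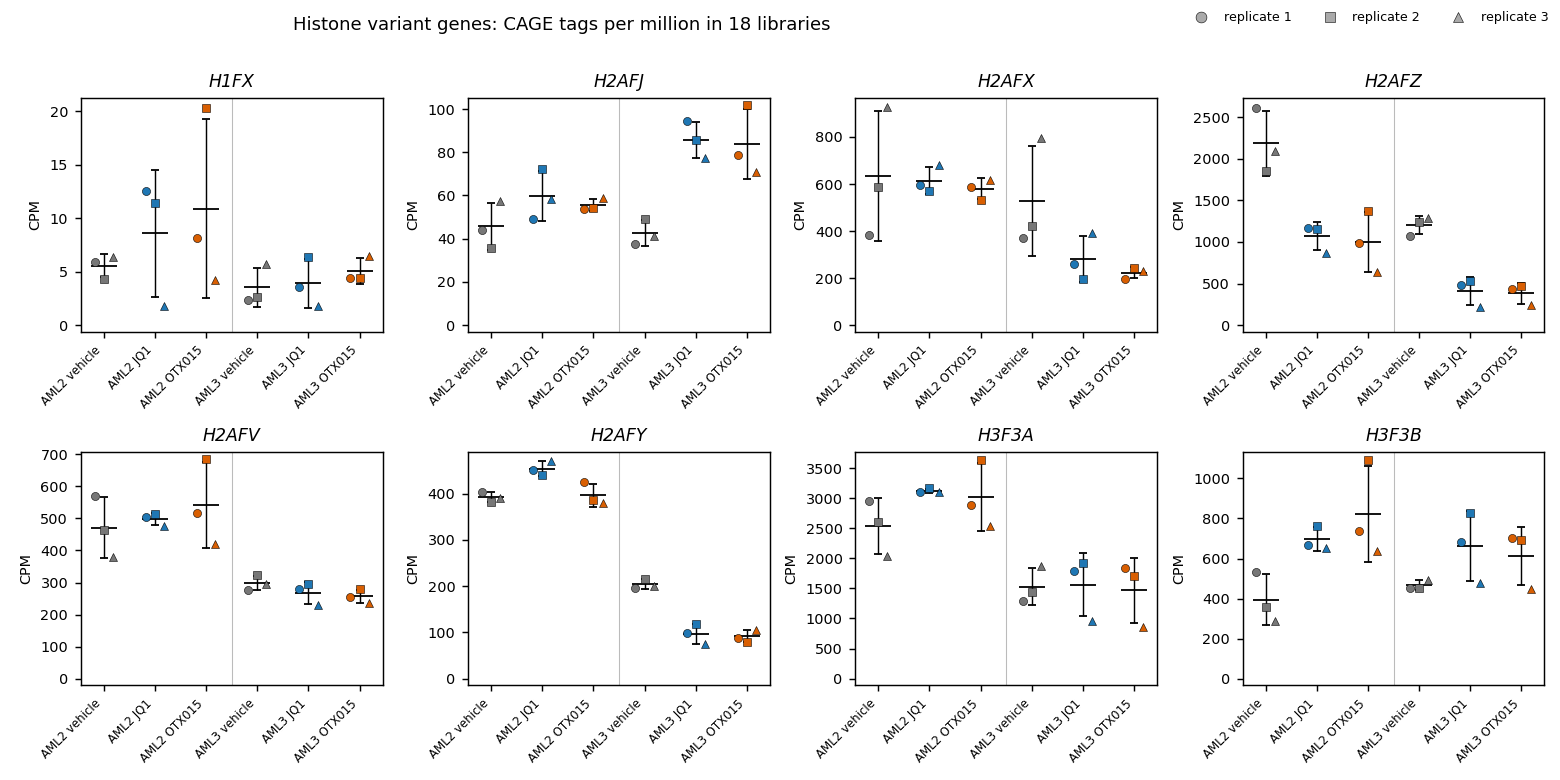
CAGE level of each histone variant gene in CPM (vertical axes, linear, 1 scale per gene) in the 18 libraries, grouped by line and treatment, with bars for mean and SD (n = 3). H2AFZ is lower with either compound in both lines, and H2AFY is lower in every AML3 library (75.8 to 216 CPM) than in any AML2 library (379 to 471 CPM).

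Between the lines, with vehicle, 0 of 7 tested members were higher in AML3 and 1, H2AFY, was lower (edgeR quasi-likelihood test, Benjamini-Hochberg adjusted p under 0.05). Of all genes tested, 23.0% passed in this comparison, 11.4% higher and 11.7% lower, so the members' share is not above the background. The groups of 4 members did not overlap, against 40.3% of all genes. H2AFZ, H2AFV and H3F3A were lower in AML3 without overlap between the groups, by log2 differences of -0.86 (SE 0.35), -0.66 (SE 0.25) and -0.73 (SE 0.36), but did not pass, with adjusted p of 0.0818, 0.0536 and 0.156. H2AFV passed with DESeq2 (adjusted p = 0.0115), with RLE size factors (adjusted p = 0.0491) and without AML2 vehicle replicate 3 (adjusted p = 0.0401). In a fit of only the groups compared H2AFV (adjusted p = 0.0247), H2AFZ (adjusted p = 0.00729) and H3F3A (adjusted p = 0.0329) all passed, and with a replicate block H2AFV (adjusted p = 0.0341) and H2AFZ (adjusted p = 0.0372) did. Without the libraries numbered 3 all 3 of these genes passed, which made 4 members. The share of all genes called in that fit is not given, so this count has no background.

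H1FX (chr3:129314771-129316277, minus strand, GRCh38, GENCODE release 29), the gene of the linker histone H1X, averaged 5.54 ± 1.07 CPM in AML2 with vehicle, 8.59 ± 5.94 with JQ1 and 10.9 ± 8.39 with OTX015 (SD, n = 3). In AML3 it averaged 3.54 ± 1.85, 3.90 ± 2.29 and 5.07 ± 1.20 CPM, and the groups overlapped. Without the libraries numbered 3, H1FX entered the test. In AML2 its log2 change was then 1.30 with JQ1 (adjusted p = 0.0331, edgeR) and 1.59 with OTX015 (adjusted p = 0.00594). Its tags in those AML2 libraries were 11 and 13 with JQ1, 7 and 21 with OTX015, and 7 and 8 with vehicle. H1FX thus passed the filter through the drug groups where it was high, so these calls are no independent support. With no filter at all and every library kept, H1FX did not pass with OTX015 in AML2 (adjusted p = 0.0853).

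With JQ1 in AML2, 1 of 7 tested members was higher and 1 was lower, where 34.6% of all genes passed (17.2% higher, 17.4% lower), and OTX015 gave the same counts, where 40.3% of all genes passed (20.5% higher, 19.9% lower). The member that rose was H3F3B with either compound, and the member that fell was H2AFZ. With JQ1 in AML3, 1 of 7 was higher and 3 were lower, where 50.8% of all genes passed (26.8% higher, 24.1% lower). With OTX015 in AML3 the counts were again 1 higher and 3 lower, where 54.9% passed (28.8% higher, 26.1% lower). H2AFJ rose and H2AFX, H2AFZ and H2AFY fell, with either compound. These counts are near the background. Members whose groups did not overlap were 4 of 7 with JQ1 in AML2 (48.3% of all genes), 2 with OTX015 in AML2 (51.5%), 3 with JQ1 in AML3 (59.0%) and 4 with OTX015 in AML3 (62.1%). Without the libraries numbered 3, 4 members passed with JQ1 and 3 with OTX015 in AML2, and 6 and 5 passed in AML3. The AML2 counts include H1FX, which passed the filter there only through the groups where it was high. Shares of all genes in that fit are not given, so these last counts cannot be set against the shares above. JQ1 and OTX015 were set against the same vehicle libraries, so their changes share that reference.

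**Figure D2:**
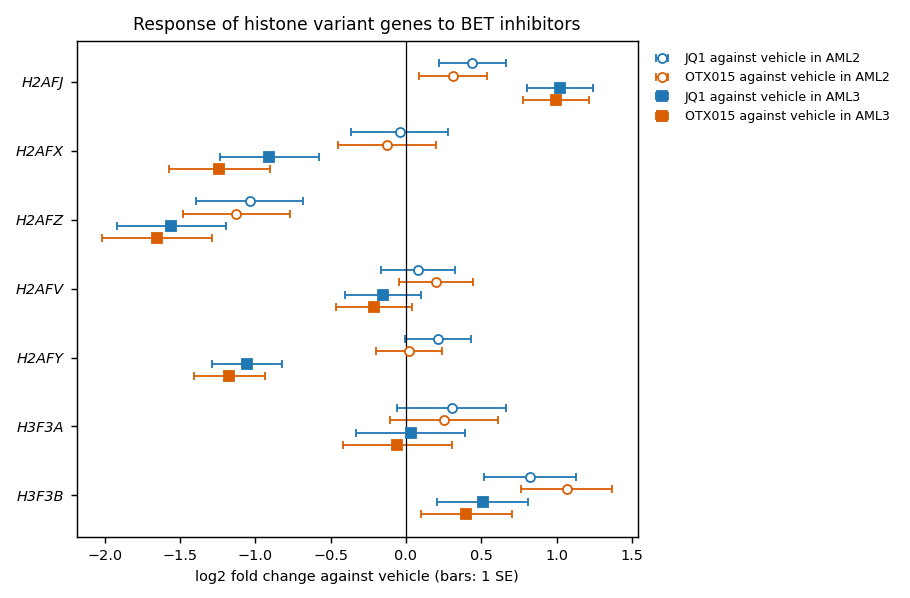
Log2 fold change against vehicle (horizontal axis, bars 1 SE) for the 7 tested histone variant genes, with open circles for AML2, filled squares for AML3, blue for JQ1 and orange for OTX015. H2AFZ lies left of 0 in all 4 comparisons, and H2AFY left of 0 in AML3 alone (-1.06 and -1.17).

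H2AFZ (chr4:99948086-99950388, minus strand, GRCh38, GENCODE release 29) and H2AFV (chr7:44826791-44848083, minus strand) encode the isoforms H2A.Z.1 and H2A.Z.2, which differ at few residues. H2AFZ fell with both compounds in both lines, and H2AFV was not called in any drug comparison. In AML2, H2AFZ was at 2612, 1851 and 2097 CPM with vehicle, at 1167, 1160 and 871 CPM with JQ1, and at 987, 1372 and 644 CPM with OTX015. In AML3 it was at 1077, 1243 and 1293 CPM with vehicle, at 477, 527 and 220 CPM with JQ1, and at 437, 470 and 237 CPM with OTX015. Every drug library lay below every vehicle library of its line. The log2 changes were -1.04 (SE 0.36, adjusted p = 0.0249, edgeR) and -1.13 (SE 0.36, adjusted p = 0.0136) with JQ1 and OTX015 in AML2. In AML3 they were -1.56 (SE 0.36, adjusted p = 0.000969) and -1.65 (SE 0.36, adjusted p = 0.000479). The change did not differ between the lines beyond its error (JQ1 -0.52, SE 0.50, OTX015 -0.53, SE 0.50).

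The AML2 calls of H2AFZ were lost on leaving out single libraries, while the log2 change kept its direction and most of its size. With JQ1 the call was lost without any one of the 3 JQ1 libraries or vehicle replicate 1, at log2 changes of -0.89 to -1.11 and adjusted p of 0.0516 to 0.124. With OTX015 it was lost without vehicle replicate 1 (-0.98, adjusted p = 0.0557) or OTX015 replicate 3 (-0.89, adjusted p = 0.0837). H2AFV was at 571, 463 and 379.5 CPM in AML2 with vehicle, at 504.5, 513 and 476 CPM with JQ1, and at 518, 686 and 419 CPM with OTX015. In AML3 it was at 277, 322 and 295 CPM with vehicle, at 278, 295 and 229 CPM with JQ1, and at 256, 278 and 237 CPM with OTX015. The groups overlapped in each line, and the log2 changes of H2AFV ran from -0.21 (OTX015 in AML3) to 0.20 (OTX015 in AML2), with none passing the test.

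As a share of the tags of both genes, which needs no scaling between libraries, H2AFV took 17.8% ± 2.35 (SD, n = 3) in AML2 with vehicle, 32.1% ± 2.85 with JQ1 and 35.7% ± 3.23 with OTX015. In AML3 it took 19.9% ± 1.12 with vehicle, 41.2% ± 8.47 with JQ1 and 41.4% ± 7.48 with OTX015. The third AML3 libraries were highest, at 51.0% of 249 tags with JQ1 (95% exact interval 44.6 to 57.4) and 50% of 220 tags with OTX015 (43.2 to 56.8). All drug libraries lay above all vehicle libraries of their line. Averaged over both lines the share was 17.8 percentage points higher with JQ1 and 19.7 higher with OTX015 (exact permutation test within lines, two-sided, p = 0.005 each, adjusted p = 0.012 over 12 tests). That p is the smallest that 400 arrangements can give, and within 1 line 3 libraries against 3 cannot go below 0.1.

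H2AFZ starts at more than 1 promoter. Of its 4 promoters, the main one (94.4% of the gene's tags, chr4:100871420-100871440 in the hg19 coordinates of the promoter table) and a second one (5.30%, chr4:100871459-100871483) were tested. The second averaged 151 ± 50.7 CPM in AML2 with vehicle, 44.3 ± 2.95 with JQ1 and 50.1 ± 15.2 with OTX015. In AML3 it averaged 60.03 ± 5.42, 11.0 ± 8.07 and 11.9 ± 6.47 CPM. Its log2 changes were -1.77 (SE 0.29) and -1.54 (SE 0.29) in AML2 and -2.25 (SE 0.36) and -2.18 (SE 0.37) in AML3, with adjusted p between 1.34e-05 and 0.000102 (edgeR, promoter table). It was also lower in AML3 than in AML2 with vehicle (-1.34, SE 0.27, adjusted p = 0.000522), where the main H2AFZ promoter was not called (-0.85, SE 0.35, adjusted p = 0.0879). The difference between both promoters was not tested.

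H2AFX (chr11:119093854-119095467, minus strand, GRCh38) encodes H2AX, the variant phosphorylated at DNA breaks. In AML3 its level was 369, 420 and 797 CPM with vehicle, 261, 197 and 390 CPM with JQ1, and 198, 242 and 230 CPM with OTX015. With JQ1 the groups overlapped, and with OTX015 they did not. The log2 change was -0.91 (SE 0.33, adjusted p = 0.0245, edgeR) with JQ1 and -1.24 (SE 0.33, adjusted p = 0.00298) with OTX015. The call with JQ1 was lost without vehicle replicate 3 (-0.50, adjusted p = 0.230), JQ1 replicate 1 (-0.87, adjusted p = 0.0685) or JQ1 replicate 2 (-0.72, adjusted p = 0.113), and with only the groups compared (-0.89, adjusted p = 0.0590). With scaling by library size alone both calls were lost, at -0.40 (adjusted p = 0.347) and -0.70 (adjusted p = 0.0938).

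In AML2, H2AFX was at 382, 589 and 929 CPM with vehicle, at 595, 569 and 679 CPM with JQ1, and at 588, 534 and 619 CPM with OTX015, and no change was called. The difference of its response between the lines was -0.86 (SE 0.46, adjusted p = 0.294) for JQ1 and -1.11 (SE 0.46, adjusted p = 0.147) for OTX015, and did not pass. Without the libraries numbered 3 it passed for both (-1.08, adjusted p = 0.00456, and -1.10, adjusted p = 0.00379). H2AFJ (chr12:14774383-14778002, plus strand), a variant known to accumulate in senescent cells, was at 37.5, 49.3 and 41.1 CPM in AML3 with vehicle. It was at 94.3, 85.6 and 77.6 CPM with JQ1 and at 78.6, 102 and 71.1 CPM with OTX015, above all vehicle libraries. The log2 change was 1.02 (SE 0.22, adjusted p = 0.00041, edgeR) with JQ1 and 0.997 (SE 0.22, adjusted p = 0.000507) with OTX015.

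In AML2, H2AFJ averaged 45.7 ± 11.0 CPM in the vehicle group, 59.9 ± 11.7 in the JQ1 group and 55.6 ± 2.90 in the OTX015 group (SD, n = 3). Its log2 changes there, 0.44 (SE 0.22, adjusted p = 0.13) and 0.31 (SE 0.23, adjusted p = 0.287), were not called. In libraries 1 and 2 alone that with JQ1 was (0.70, adjusted p = 0.0132). Its response did not differ between the lines by the test (adjusted p = 0.296 and 0.201).

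H2AFY (chr5:135333900-135399914, minus strand, GRCh38, GENCODE release 29), the gene of macroH2A1, was lower in AML3 than in AML2. It fell with both compounds in AML3, and this response differed from that in AML2. With vehicle it was at 403, 381 and 391 CPM in AML2 and at 196, 216 and 200 CPM in AML3 (log2 difference -0.94, SE 0.22, adjusted p = 0.00233, edgeR). With JQ1 it was at 451, 439 and 471 CPM in AML2 and at 97.8, 118 and 75.8 CPM in AML3. With OTX015 it was at 425, 386 and 379 CPM in AML2 and at 88.5, 80.0 and 105.5 CPM in AML3. The AML3 drug libraries lay below all others. In AML3 the log2 change was -1.06 (SE 0.23, adjusted p = 0.000513) with JQ1 and -1.17 (SE 0.23, adjusted p = 0.000173) with OTX015. In AML2 it was 0.21 (SE 0.22, adjusted p = 0.482) and 0.02 (SE 0.22, adjusted p = 0.967).

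The difference between the lines in this response was -1.27 (SE 0.32, adjusted p = 0.0128) for JQ1 and -1.19 (SE 0.32, adjusted p = 0.0192) for OTX015. H2AFY was the 1 member of 7 that passed this test with either compound, against 6.94% of all genes for JQ1 (3.02% higher, 3.92% lower) and 7.65% for OTX015 (2.84% higher, 4.81% lower). For OTX015 the call was lost with scaling by library size alone (-0.89, adjusted p = 0.0728), and without any one of 5 libraries: AML2 vehicle replicate 2, AML2 OTX015 replicate 1, AML3 vehicle replicate 2, and AML3 OTX015 replicates 1 and 2. The value without each of them stayed between -1.10 and -1.18, with adjusted p of 0.0502 to 0.0704.

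The lines differed in their use of the outer H2AFY start sites. The gene's 11 promoters, on the minus strand of chromosome 5, fell into 3 blocks split at gaps of more than 300 bases, a grouping chosen after its values were seen. The outer block lies farthest 5′ (chr5:134735532-134735685, hg19), the inner block is nearer the gene body (chr5:134734791-134734958, hg19), and a promoter inside the gene held 11 tags in all. In AML2 with vehicle the outer block held 60.5%, 64.6% and 49.02% of H2AFY tags, and its mean was 59.6% ± 0.748 with JQ1 and 57.5% ± 5.33 with OTX015 (SD, n = 3). In AML3 it held 2 of 725 tags with vehicle, 0 of 264 with JQ1 and 0 of 203 with OTX015. The outer level in AML2 with vehicle was 418 times that in AML3 (95% counting interval 115 to 3454), and with a floor of 3 tags over the AML3 group it was at least 235-fold higher with JQ1 and at least 178-fold higher with OTX015. These limits cover counting error only.

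The inner block was at 157, 133 and 198 CPM in AML2 with vehicle and at 195, 215 and 200 CPM in AML3 with vehicle. The ranges overlapped narrowly, and the most used inner promoter (chr5:134734908-134734931) did not differ between the lines by the test (log2 difference 0.21, SE 0.22, adjusted p = 0.56, edgeR, promoter table). The most used outer promoter (chr5:134735568-134735584) averaged 190 ± 17.1 CPM in AML2 with vehicle against 0.495 ± 0.451 CPM in AML3. All 3 tested outer promoters of H2AFY were lower in AML3. They had almost no tags there and passed the filter on low counts only through AML2. Their tests between the lines are therefore no support beyond the levels. Of 3 tested inner promoters, 1 was higher in AML3 (chr5:134734940-134734958, 0.89, SE 0.30, adjusted p = 0.0307). That inner call was lost with DESeq2 (adjusted p = 0.0867), with no filter on low counts (adjusted p = 0.0560) and without any one vehicle library other than AML2 replicate 3 (log2 differences of 0.72 to 0.92, adjusted p of 0.0642 to 0.145). Over the members, 5 of 13 tested promoters passed between the lines, the 3 outer ones of H2AFY among them, against 22.0% of all promoters. Without the libraries numbered 3 there were 8, with no share of all promoters given for that fit.

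The fall of H2AFY in AML3 took place at the inner starts, the ones in use there. With JQ1 the inner block was at 97.8, 118 and 75.8 CPM and with OTX015 at 87.4, 80.0 and 105.5 CPM, all below the vehicle libraries. All 3 tested inner promoters fell with either compound, with log2 changes of -0.87 (SE 0.23, adjusted p = 0.00301, edgeR) and -0.95 (SE 0.24, adjusted p = 0.00145) at the most used one. Over the members, 7 of 13 tested promoters passed in AML3 with JQ1 and 7 with OTX015, against 50.3% and 54.2% of all promoters. The 13 include the 3 outer H2AFY promoters, which had 2 tags or fewer in each AML3 group and so could not be called there. In AML2 the 6 tested H2AFY promoters had adjusted p of 0.26 and above with either compound, where 3 of the 13 member promoters passed with each, against 35.1% of all promoters with JQ1 and 40.6% with OTX015. The response of the most used inner promoter was lower in AML3 than in AML2 by -1.03 (SE 0.33, adjusted p = 0.0584) for JQ1 and -1.11 (SE 0.33, adjusted p = 0.0394) for OTX015, and the first of these did not pass. These were 0 and 1 of 13 member promoters called, against 5.55% and 6.3% of all promoters, and DESeq2 called 1 with JQ1. For the outer H2AFY promoters among the 13 no response in AML3 could be measured, for want of tags. The 2 RefSeq starts whose upstream windows are printed above are 656 bases apart, and the middles of the most used inner and outer promoters are 657 bases apart in hg19. Positions were not converted between the builds.

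**Figure D3:**
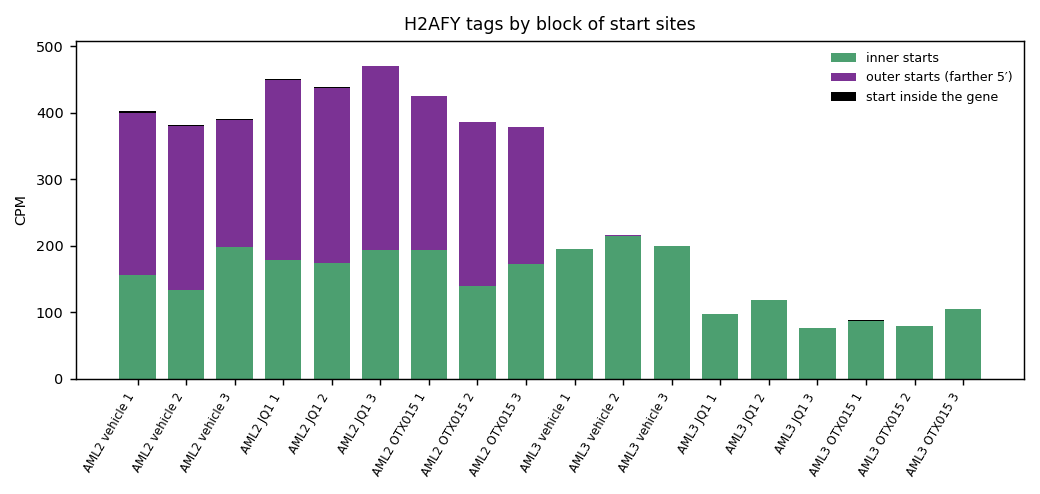
H2AFY level in CPM (vertical axis, from 0) in each of the 18 libraries, stacked by block of start sites (inner green, outer purple, inside the gene black). The outer block makes up 49.02% to 64.6% of the tags in every AML2 library and at most 1 tag per library in AML3, where the inner block is lower with JQ1 and OTX015 than with vehicle.

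H3F3A (chr1:226061851-226072001, plus strand, GRCh38) and H3F3B (chr17:75776434-75785893, minus strand) encode the same H3.3 protein. H3F3B rose with both compounds in AML2, and H3F3A was not called. H3F3A was at 2960, 2600 and 2035 CPM in AML2 with vehicle, at 3105, 3162 and 3106 CPM with JQ1, and at 2880, 3635 and 2543 CPM with OTX015. In AML3 it was at 1291, 1433 and 1868 CPM with vehicle, at 1795, 1929 and 963 CPM with JQ1, and at 1847, 1705 and 855 CPM with OTX015. The groups overlapped except with JQ1 in AML2, where all drug libraries lay above vehicle. No change of H3F3A was called with either compound, with log2 changes of 0.30, 0.25, 0.03 and -0.06, each with an SE of 0.36. In libraries 1 and 2 alone it was higher with JQ1 in AML3 (0.46, adjusted p = 0.0422). Tags of near-identical copies can be split in alignment, and the pseudogene H3F3AP4 was listed with 3.06% as many tags as H3F3A (2.32% to 4.13% by library). Tags lost or placed elsewhere were not measured, so the uncertainty of the H3F3A level, on which the H3.3 shares below rest, is not known.

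H3F3B was at 534, 359 and 286 CPM in AML2 with vehicle, at 670, 764 and 653 CPM with JQ1, and at 739, 1093 and 636 CPM with OTX015. All drug libraries lay above the vehicle libraries. The log2 change was 0.82 (SE 0.30, adjusted p = 0.0368, edgeR) with JQ1 and 1.07 (SE 0.31, adjusted p = 0.0069) with OTX015. The call with JQ1 was lost without vehicle replicate 2 or 3 or any one JQ1 library (log2 changes of 0.64 to 0.89, adjusted p of 0.0633 to 0.169) and with no filter on low counts (0.81, adjusted p = 0.0607). That with OTX015 was lost without OTX015 replicate 2 (0.80, adjusted p = 0.0623). In AML3, H3F3B was at 451, 452.5 and 495 CPM with vehicle, at 680, 830 and 478 CPM with JQ1, and at 701, 692 and 448 CPM with OTX015. The third drug libraries lay within or below the vehicle range, and the changes of 0.51 (SE 0.30, adjusted p = 0.162) and 0.40 (SE 0.30, adjusted p = 0.268) were not called. With scaling by library size alone they were (0.91, adjusted p = 0.00216, and 0.89, adjusted p = 0.00234). Without the libraries numbered 3 they also passed (0.74, adjusted p = 0.00155, and 0.62, adjusted p = 0.00722).

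As a share of H3.3 tags, H3F3B took 13.3% ± 1.77 (SD, n = 3) in AML2 with vehicle, 18.2% ± 1.12 with JQ1 and 21.2% ± 1.70 with OTX015. In AML3 it took 23.6% ± 2.495 with vehicle, 30.2% ± 2.85 with JQ1 and 30.3% ± 3.64 with OTX015. All drug libraries lay above the vehicle libraries of their line, the third AML3 libraries included. Averaged over the lines the share was 5.79 percentage points higher with JQ1 and 7.29 higher with OTX015 (exact permutation test, p = 0.005 each, adjusted p = 0.012).

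The clustered genes outnumber the variants in tags, and the shares of the variants were compared within each library. H3F3A and H3F3B together held 6.58% ± 2.35 of all H3 tags in AML2 with vehicle, 9.22% ± 2.33 with JQ1 and 10.6% ± 3.22 with OTX015 (SD, n = 3, 12 clustered H3 genes in the table). In AML3 they held 5.68% ± 0.926 with vehicle, 15.5% ± 2.11 with JQ1 and 19.9% ± 3.22 with OTX015. The AML2 groups overlapped, and in AML3 each drug group lay above the vehicle group without overlap. Over both lines the share was 6.21 points higher with JQ1 (exact permutation test, p = 0.015, adjusted p = 0.0257) and 9.14 higher with OTX015 (p = 0.01, adjusted p = 0.02). The JQ1 call was lost without AML2 vehicle replicate 3 (5.57 points) or AML2 JQ1 replicate 3 (5.54 points), at an adjusted p of 0.0525 each.

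The H2A variants held 5.31% ± 0.507 of all H2A tags in AML2 with vehicle, 4.63% ± 1.02 with JQ1 and 5.03% ± 1.74 with OTX015, and the groups overlapped. In AML3 they held 3.77% ± 0.494, 5.03% ± 1.09 and 5.68% ± 0.907, and both drug groups lay above vehicle. Over both lines the share did not pass the test (0.286 points higher with JQ1, exact permutation test, p = 0.64, adjusted p = 0.768, and 0.813 higher with OTX015, p = 0.255, adjusted p = 0.34). By line the differences were -0.685 and -0.284 points in AML2 and 1.26 and 1.91 in AML3, and the difference between the lines was not tested.

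**Figure D4:**
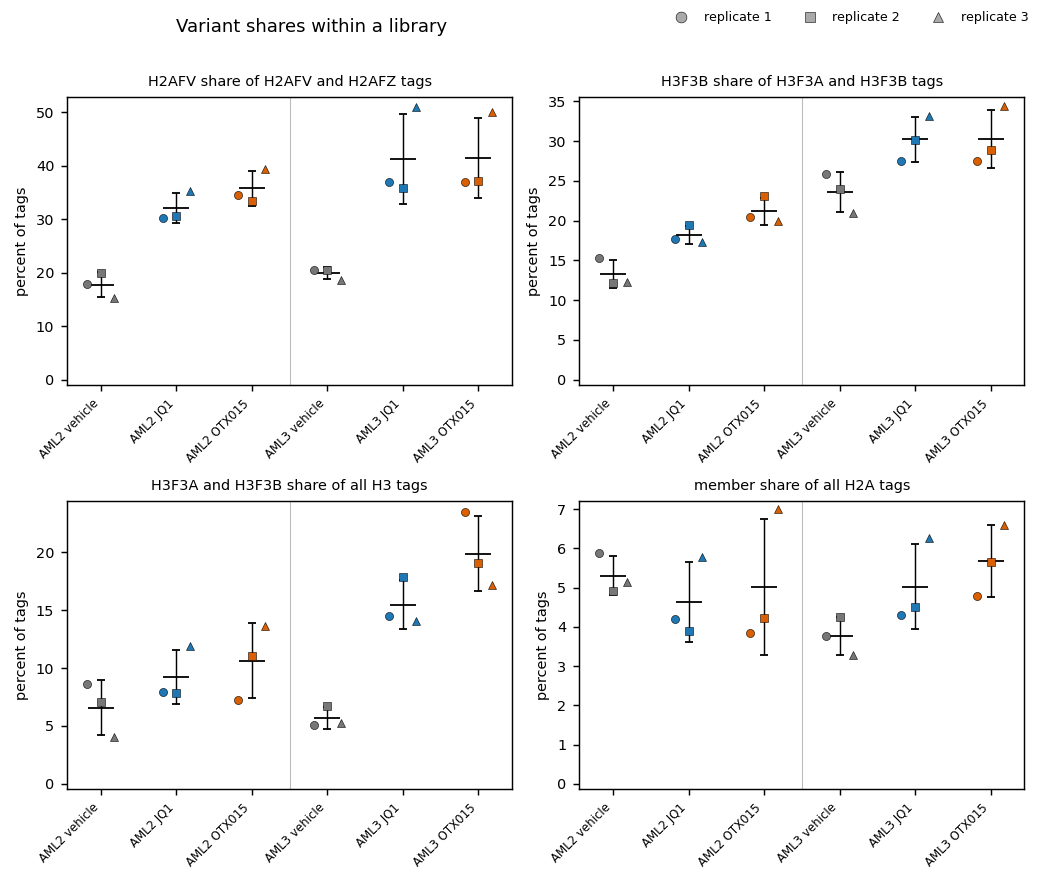
Percent of tags (vertical axes, from 0) held by H2AFV among H2A.Z tags, H3F3B among H3.3 tags, the H3.3 genes among all H3 tags and the H2A variants among all H2A tags, by library, with mean and SD (n = 3). In the panels for H2AFV and H3F3B every drug library lies above every vehicle library of its line, and in the H2A panel the AML2 groups overlap, at 3.84% to 7.02% over all 9 libraries.

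None of the 7 tested members differed between the compounds in either line (edgeR, adjusted over all genes), and 0 of 7 had an unadjusted p under 0.05 or passed with DESeq2. Of all genes 0.0% passed in either line, and 3.3% in AML2 and 2.52% in AML3 had an unadjusted p under 0.05. The groups of 1 member, H2AFY, did not overlap in AML2 (9.92% of all genes), and in AML3 those of every member did (6.49% of all genes did not). The labels give no doses, so whether they were matched is not known. The largest difference in AML3 was that of H2AFX, -0.33 (OTX015 minus JQ1, 95% interval -1.06 to 0.39 with 12 degrees of freedom), and the largest in AML2 was that of H3F3B, 0.24 (-0.41 to 0.90). For H2AFY in AML3 it was -0.12 (-0.64 to 0.41). With the replicate number as a block these differences were -0.28 (SE 0.275) for H2AFX, 0.22 (SE 0.271) for H3F3B and -0.12 (SE 0.245) for H2AFY, and none passed (edgeR, adjusted p = 1.0). Each of the intervals given above includes 0 and reaches at least 0.39 on both sides. For H2AFY in AML2, whose groups did not overlap, the difference was -0.19 (95% interval -0.67 to 0.285). Equal action of the compounds was thus not shown.

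Genes with the most similar pattern over the 18 libraries were named by Pearson's r of log2 CPM among 8708 genes, as a description, since the libraries share the line difference and their depth. For H2AFY they were ITGAL (r = 0.989), LST1 (0.983) and CD74 (0.978). For H2AFZ the nearest were XAGE1B (0.991), TOMM6 (0.988) and EIF3M (0.984), and for H2AFV they were RAB4A (0.960), BMI1 (0.952) and ARPC5 (0.947). H3F3A lay nearest to TPT1 (0.957), ARPC5 (0.951) and SMDT1 (0.937). H2AFX, H2AFJ and H3F3B had weaker neighbours, led by SMC4 (0.942), B4GALT4 (0.934) and SARAF (0.884). Among the members, H2AFJ and H2AFZ ran most opposite (-0.725), and H2AFV and H3F3A were the most alike pair (0.907).

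The genes that place these histones were counted by list, beside the shares of all genes tested. Those shares were 17.2% higher and 17.4% lower with JQ1 in AML2, and 20.5% and 19.9% with OTX015. In AML3 they were 26.8% higher and 24.1% lower with JQ1, and 28.8% and 26.1% with OTX015. Of 7 genes for H3.3 deposition in AML3, JQ1 raised 2 and lowered 1, and OTX015 raised 3 and lowered 1, which is near these shares. DAXX, the chaperone that delivers H3.3 to repeats, fell with JQ1 from 34.8 ± 2.003 to 17.5 ± 3.20 CPM (log2 change -0.98, SE 0.25, adjusted p = 0.00241). ATRX, its partner, rose with OTX015 from 13.0 ± 4.72 to 30.1 ± 1.98 CPM (1.23, SE 0.36, adjusted p = 0.00585). In AML2 UBN1, a HIRA partner, rose with either compound and HIRA fell with JQ1, and between the lines ASF1A was lower in AML3 (33.2 against 90.2 CPM, -1.41, SE 0.25, adjusted p = 0.000113).

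Of 7 chaperones of replication-coupled H3, 5 fell in AML3 with either compound, against 24.1% and 26.1% of all genes, and the rest were not called, with a median log2 change of -0.83 with JQ1 and -1.08 with OTX015 against 0.04 and 0.03 over all genes. MCM2 fell from 95.6 ± 3.48 to 17.6 ± 3.50 and 11.6 ± 1.33 CPM, and CHAF1A, the large CAF-1 subunit, from 47.3 ± 5.97 to 16.7 ± 1.99 and 7.62 ± 2.92 CPM. JQ1 raised 1 and lowered 2 of them in AML2, and OTX015 raised 1 (ASF1B) and lowered 3, NASP falling with both. Of 20 genes for H2A.Z exchange, 2 rose and 8 fell in AML3 with either compound. Of all genes 26.8% and 28.8% rose and 24.1% and 26.1% fell, and 50.8% and 54.9% changed in one direction or the other. The share called in either direction is thus near that of all genes, but more of the list fell than rose. Its medians were -0.41 and -0.33, against 0.04 and 0.03 over all genes. Among those that fell was ANP32E, which removes H2A.Z from nucleosomes (331 ± 28.6 CPM with vehicle, 75.3 ± 6.98 with JQ1, 69.7 ± 6.36 with OTX015). JQ1 raised 1 and lowered 6 in AML2, and OTX015 raised 3 and lowered 7, RUVBL1 falling from 170 ± 21.0 to 66.8 ± 4.01 and 48.8 ± 11.7 CPM.

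Of 8 FACT and other transcription-coupled chaperones 3 fell in AML2 with each compound, 5 fell in AML3 with JQ1 and 6 with OTX015, and the rest were not called. The shares of all genes that fell were 17.4% and 19.9% in AML2 and 24.1% and 26.1% in AML3. SSRP1 of FACT and ANP32B fell with both compounds in both lines. Of 8 H2AX kinases and readers, JQ1 raised 2 and lowered 3 in AML3, and OTX015 raised 4 and lowered 3, where 50.8% and 54.9% of all genes were called. BRCA1 fell there from 36.5 ± 7.63 to 9.28 ± 2.55 and 3.997 ± 2.29 CPM. In AML2 JQ1 raised 2 and lowered 3, and OTX015 raised 1 and lowered 2, with ATM rising in both. Of 9 other replacement variants only CENPA, the centromeric H3, was in the table. In AML3 its level of 60.5 ± 11.8 CPM fell to 20.6 ± 4.26 with JQ1 (-1.57, SE 0.28, adjusted p = 5.31e-05) and to 11.9 ± 6.66 CPM with OTX015 (-2.46, SE 0.32, adjusted p = 7.37e-07). CENPA was not called in AML2 and differed in response between the lines (adjusted p = 0.0267 and 0.00135).

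Of 60 tested clustered histone genes, 47 fell in AML3 with JQ1 and 53 with OTX015, against 24.1% and 26.1% of all genes, and the rest were not called, with median log2 changes of -1.40 and -1.84 against 0.04 and 0.03 over all genes. JQ1 raised 1 in AML2, HIST1H2APS5 (1.88, SE 0.41, adjusted p = 0.00105, edgeR), and lowered 4, and OTX015 raised 2 and lowered 7. Of all genes 17.2% rose and 17.4% fell there with JQ1, and 20.5% and 19.9% with OTX015. HIST1H2AD fell with JQ1 from 83.3 ± 19.0 to 31.5 ± 12.1 CPM. HIST1H3C, which counts among the H3 tags above, fell with OTX015 from 4514 ± 816 to 1172 ± 239 CPM. In AML3 with vehicle HIST1H3C was at 1.27 ± 1.51 CPM. The list was taken by symbol and so holds HIST1H2APS5, by its symbol a pseudogene, which also counts among the H2A tags above. The test of the difference in response between the lines passed for 4 of the 60 genes with JQ1 and 15 with OTX015. In all of these the log2 change was lower in AML3 than in AML2, against 3.92% and 4.81% of all genes. Reads of clustered histone genes can be split between near-identical copies, so single clustered genes are uncertain.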

How the data were processed

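CAGE tags were taken as the counts per gene symbol and per promoter that the authors deposited, whole numbers that were not normalized. STAR and hg38 are named in the submitters' processing notes, while the promoter names carry hg19 coordinates, which are printed as given. The counting tool is not given in the sources used here. Enhancer counts were not used. The members and lists were chosen with earlier results of these data known. All 18 libraries entered 1 quasi-likelihood fit with a coefficient per group in edgeR 4.0.16 under R 4.3.3 (TMM, filterByExpr, 12 residual degrees of freedom, 10031 genes and 12867 promoters), and p-values were adjusted over all of them by Benjamini-Hochberg. The code was tested on simulated data. Promoters were tied to a member where neighbouring counts summed to the gene's counts in all 18 libraries, which placed 26 promoters, 13 of them tested. One gene of the set, and the results that need it, are not reported here. Named genes were the other members, the 2 called genes of lowest adjusted p in each list for each comparison, and the 3 most correlated genes per member with at least 10 CPM on average. Shares were tested with exact permutation tests within lines (SciPy 1.17.1), 12 in all and 8 of them given here. Alternatives were DESeq2 1.42.0, other scalings and filters, a replicate block, and leaving out libraries. Same-numbered libraries deviated together in OTX015 against JQ1 in AML3 (correlations 0.351 to 0.623). In AML2 that comparison gave 0.121 to 0.347, which overlaps the range against vehicle (-0.053 to 0.164), so whether the numbers pair those libraries is not clear. The fit has no block, and values with one are given for OTX015 against JQ1. No pair of libraries agreed within sampling noise (chi-square per degree of freedom at least 2.08). Sequences are from RefSeq.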

Additional observations from a re-analysis of the deposited data

Results flagged for a closer look

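The response of H2AFY, the macroH2A1 gene, differed between the lines by an interaction test (edgeR, adjusted over 10031 genes). For JQ1 the log2 change in AML3 minus that in AML2 was -1.27 (SE 0.32, adjusted p = 0.0128), from -1.06 in AML3 and 0.21 in AML2. For OTX015 it was -1.19 (SE 0.32, adjusted p = 0.0192), from -1.17 and 0.02. The OTX015 call was lost with scaling by library size alone (-0.89, adjusted p = 0.0728) and without any one of 5 libraries (adjusted p of 0.0502 to 0.0704). All 3 libraries of each AML3 drug group lay below the AML3 vehicle libraries. Both values rest on the same vehicle libraries. In AML2 the outer H2AFY starts held 49.02% to 64.6% of the gene's tags, and in AML3 they held 2 of 725 tags with vehicle. The gene values thus set mostly inner starts in AML3 against both blocks in AML2. At the most used inner promoter the difference for JQ1 was -1.03 (SE 0.33, adjusted p = 0.0584, edgeR, promoter table) and did not pass. For OTX015 it was -1.11 there (SE 0.33, adjusted p = 0.0394).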

How the results depend on the processing

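Of 903 values of single member genes under alternatives, 802 kept their direction and side of the threshold, 57 changed sign with neither value past it, 25 fell below it and 19 rose above it in the same direction, and 0 changed sign with either value called. The member count between the lines was 1, and became 2 with RLE size factors or DESeq2, 3 with a replicate block, 4 without the libraries numbered 3, 4 with only the groups compared, and 1 to 2 on leaving out 1 library. For JQ1 in AML2 the count of 2 became 1 with no filter on low counts and ran from 0 to 1 on leaving out 1 library. Without the libraries numbered 3 it became 4, with H1FX, which passed the filter through the groups where it was high. For OTX015 in AML2 that range was 1 to 2. The count of 1 for the difference between the lines became 2 without the libraries numbered 3 for both compounds, and 0 for OTX015 with library size alone. On leaving out 1 library it stayed at 1 for JQ1 and ran from 0 to 1 for OTX015. Shares of all genes under these alternatives are not given, so the counts cannot be set against a background.

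Promoter alternatives were chosen after seeing the data. Between the lines the count of 5 became 8 without the libraries numbered 3 or with only the groups compared. For JQ1 in AML2 the count of 3 member promoters became 5 without the libraries numbered 3, with 1 to 2 on leaving out 1 library. For the JQ1 difference between the lines, 0 became 1 with a replicate block, DESeq2 or only the groups compared, 3 without the libraries numbered 3, and 0 to 2 on leaving out 1. For OTX015, 1 became 0 with library size alone or no filter, 2 without the libraries numbered 3, and 0 to 1 on leaving out 1. Shares of all promoters under these alternatives are likewise not given.

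The shares that passed kept their direction but not their call without the libraries numbered 3, where no p can go below 0.0556, or with the replicate block, where none can go below 0.0312 before adjustment. Without the libraries numbered 3 the differences for JQ1 and OTX015 were 4.36 and 5.65 points (H3F3B), 13.7 and 15.7 (H2AFV) and 5.15 and 8.31 (H3.3 in H3). With the block they were 5.79 and 7.29, 17.8 and 19.7, and 6.21 and 9.14. Leaving out 1 library gave 5.54 to 6.72 for H3.3 with JQ1, where single libraries ended the call. Same-numbered libraries showed little pairing against vehicle, and the block left the member counts against vehicle as they were and those between the compounds at 0.

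Scaling by library size alone moved the median log2 change of all genes most with OTX015 in AML3, from 0.03 to 0.51, and the share of higher genes among those called from 52.7% to 72.6% (JQ1 in AML3), 52.4% to 72.7% (OTX015 in AML3), 49.8% to 59.9% (JQ1 in AML2), 50.7% to 61.1% (OTX015 in AML2), 49.4% to 61.0% (lines), 43.5% to 54.8% and 37.2% to 54.7% (differences of response for JQ1 and OTX015). Depth limits H1FX (108 tags in all). The causes were not tested.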

Other observations

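The promoters of the members differed in width as the promoter table defines them. The main promoters of H2AFX, H2AFZ and H3F3B, whose RefSeq windows hold TATAAA, were 16, 21 and 21 bases wide, and that of H1FX, whose window also holds it, 16. Those of H2AFV and H2AFJ, whose windows do not, were 67 and 51 bases wide, and that of H3F3A, with no TATAAA in its 4 windows, was 23. The most used inner and outer promoters of H2AFY, whose windows hold no TATAAA either, were 24 and 17 bases wide, so narrow promoters occurred with and without the motif. H2AFV and H3F3B had 1 promoter each, which held 100% of their tags, and H2AFY had 11. These values were picked out after they were seen, the windows and promoters come from different builds, and no test was made.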
